A study of Rattus norvegicus with 40 samples.

Results

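The perirenal fat of heterozygous Tti2 knockout rats was compared with the fat of wild-type littermates. All samples labelled peritoneal fat were taken, the depot that the methods of the study call perirenal, which gave 10 of the 40 samples of the series. They came from 5 SHR-Tti2+/- rats (genotype Tti2 +/-) and 5 wild-type rats, both on the inbred spontaneously hypertensive background SHR/OlaIpcv, without any treatment. The knockout line descends from 1 founder made with a zinc finger nuclease, whose first-exon deletion shifts the reading frame of Tti2 in every tissue of the animal, so an effect in fat cannot be told apart from an effect that reached the fat from elsewhere. Each sample was a different rat, and for each tissue the samples with the best RNA integrity had been chosen among 6 rats per genotype. The study used male rats, and the age of those used for RNA sequencing is not given in the sources used here. Polyadenylated RNA was sequenced in strand-specific libraries, and kallisto, which matches reads to transcripts without placing them on a genome, gave an estimated count for each of 31715 Ensembl transcripts.

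Tti2 is a subunit of a co-chaperone complex with Telo2 and Tti1, which helps the kinases of the mTOR and ATM family to fold and assemble. White fat stores triglyceride in response to insulin and releases fatty acids and glycerol between meals, and mTOR is known to take part in fat cell formation and lipid synthesis. The deposited tables list transcripts by Ensembl ID without gene names, and none of the IDs was found in the gene table used here. Tti2 itself, the kinases and the markers of fat cells could therefore not be looked up, and 4 transcripts are described by ID.

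The total estimated count per fat sample lay between 22416531 and 26822062. It had a median of 26259944 in wild-type and 23564264 in SHR-Tti2+/- rats, and the mean of the SHR-Tti2+/- rats was 92.7% of that of the wild-type rats (exact permutation test, two-sided, p = 0.048, or 0.19 after Benjamini-Hochberg adjustment over 4 sample measures). Counts were compared after normalization for library size. Libraries were made from a fixed amount of RNA and pooled in equal molar amounts, so the total is not a measure of RNA in the tissue. For a single transcript in bulk tissue, fewer cells of a type and less RNA per cell cannot be told apart. The number of transcripts with at least 5 estimated counts was 19974 ± 104 in wild-type and 20026 ± 92.9 in SHR-Tti2+/- fat (SD, n = 5 rats each, exact permutation p = 0.44). With all libraries thinned to the lowest total it was 19843 ± 150.4 and 20008 ± 23.3, or 165.4 more in SHR-Tti2+/- fat (SD, n = 5 each, exact permutation p = 0.048), so this comparison depended on depth. The 10 most abundant transcripts of a sample took 10.6 ± 0.580% of its counts in wild-type and 10.2 ± 0.368% in SHR-Tti2+/- fat (SD, n = 5 each, exact p = 0.20), and the 100 most abundant took 29.1 ± 0.940% and 28.3 ± 0.491% (SD, n = 5 each, exact p = 0.16). The fat kept the same dominant transcripts throughout: 8 transcripts were among the top 10 of every rat, and 86 among the top 100 of every rat. Since gene names could not be used, the tissue label was checked by profile. Each fat sample correlated at 0.977 to 0.983 with the mean of the other fat samples across transcripts, and at most at 0.811 with the mean of another tissue.

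No transcript was called different between the genotypes in the fat by edgeR's test, while DESeq2's Wald test called 20 at the same thresholds, which are described below. Of 20152 tested transcripts, 0 (0%) passed an adjusted p-value under 0.1 together with a fold change of at least 1.5 by edgeR's quasi-likelihood test, and the smallest adjusted p-value was 0.337. At an unadjusted p-value under 0.05, 771 transcripts (3.83% of those tested) were higher and 634 (3.15%) were lower in SHR-Tti2+/- fat, 1405 in either direction (6.97%), where an even spread of p-values gives 1008. For comparison, the same rule and fit called 38 transcripts in the liver (0.207%), 1 in the soleus muscle (0.00555%) and 1 in the hippocampus (0.00484%). The call in the muscle and the call in the hippocampus were the same transcript, ENSRNOT00000032467.4. It also had the smallest p-value in the fat and is described below. At an unadjusted p-value under 0.05, 5.28% were higher and 4.87% lower in the liver (10.2% together), 3.69% and 3.17% in the muscle (6.85% together), and 2.06% and 2.16% in the hippocampus (4.22% together). The biological coefficient of variation, the spread between rats of one genotype beyond counting error, was 24.6% in fat, 22.6% in the liver, 27.5% in the muscle and 26.5% in the hippocampus.

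The width of the unadjusted intervals shows how closely each fold change was measured. The 95% interval of the fold change lay wholly within 1.5-fold in either direction for 12524 of the tested transcripts (62.1%) and within 2-fold for 15960 (79.2%). This share varied with abundance. The interval lay within 1.5-fold for 95.4% of the 1788 transcripts with at least 100 CPM (normalized counts scaled to a fixed library total), for 91.1% of the 8697 between 10 and 100 CPM, for 44.2% of the 6511 between 1 and 10 CPM and for 0.665% of the 3156 under 1 CPM. These intervals are for single transcripts and do not give the size of difference that would pass adjustment over all of them. For 22 transcripts the interval lay wholly beyond 1.5-fold before adjustment, 19 of them on the higher side and 3 on the lower.

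Among the 100 most abundant transcripts of the fat, which ran from 857 to 19800 CPM, 2 were higher and 2 lower at an unadjusted p-value under 0.05, and none had genotypes that did not overlap, against 6.97% of all tested transcripts at that p-value and 0.72% and 0.595% not overlapping on the higher and lower side. Their log2 fold changes ran from -0.84 to 0.15 with a median of -0.04, and 71 of the 100 lay below 0. For 91 of them the 95% interval stayed within 1.5-fold.

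**Figure D1:**
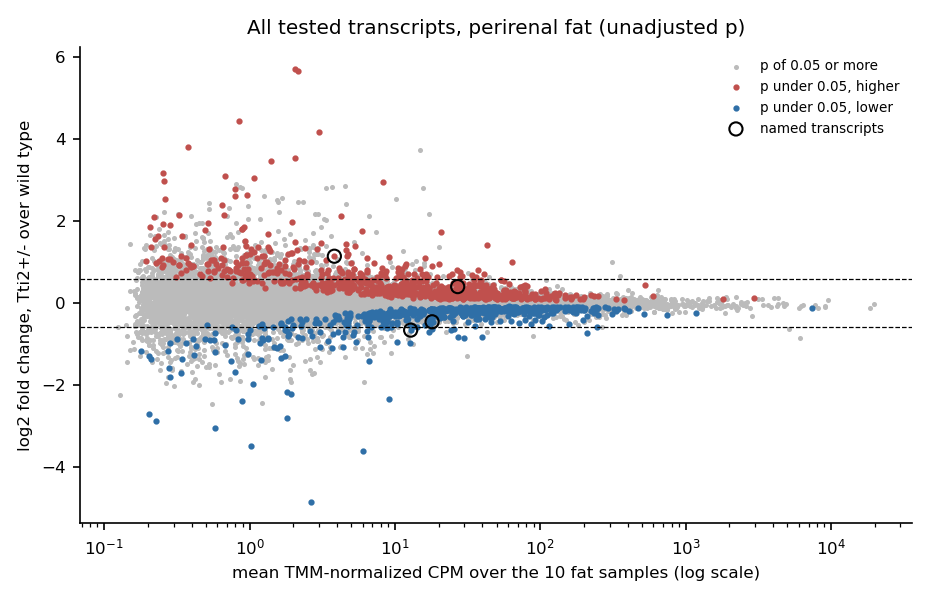
Log2 fold change of SHR-Tti2+/- over wild-type fat (vertical axis) against mean CPM of the 10 fat samples (horizontal axis, log scale) for the 20152 tested transcripts. Red and blue points have an unadjusted p-value under 0.05, dashed lines mark 1.5-fold and circles the 4 named transcripts. None passes the adjusted threshold by edgeR's test (DESeq2's Wald test called 20), and the spread narrows with abundance.

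The direction of the differences varied with abundance. With the further limit of 1.5-fold, 231 transcripts were higher (1.15% of those tested) and 89 lower (0.442%). Of the 231, 91 had under 1 CPM and 105 had 1 to 10 CPM. Of the 89, 31 had under 1 CPM and 47 had 1 to 10 CPM. Of all 20152 tested transcripts, 3156 had under 1 CPM and 6511 had 1 to 10 CPM. Of the 1471 that reached 1.5-fold at any p-value, 816 had under 1 CPM and 572 had 1 to 10 CPM. Past this limit low abundance was thus common whatever the p-value. Among transcripts of at least 100 CPM, 33 were higher and 79 lower at an unadjusted p-value under 0.05, whatever their fold change. These were 1.85% and 4.42% of the class, against 3.83% and 3.15% of all tested transcripts. The median log2 fold change was 0.08 under 1 CPM, 0.03 from 1 to 10 CPM, -0.02 from 10 to 100 CPM and -0.02 at 100 CPM and over, against -0.0032 over all tested transcripts. With DESeq2's size factors the median over all tested transcripts was -0.00052.

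The values of the rats themselves gave the same picture. All 5 SHR-Tti2+/- rats lay above all 5 wild-type rats for 145 transcripts (0.72% of those tested) and below them for 120 (0.595%). The corresponding counts were 237 and 230 in the liver (1.29% and 1.25%), 144 and 91 in the muscle (0.8% and 0.505%) and 122 and 123 in the hippocampus (0.591% and 0.596%). In the fat the median log2 fold change of the non-overlapping transcripts was 0.40 on the higher side and -0.20 on the lower side. Transcripts at or under 3 counts in all rats of one genotype and above 3 in all rats of the other were sought among all 31715, tested or not. They numbered 2 with the counts in SHR-Tti2+/- fat and 0 with the counts in wild-type fat. Of the 2, 1 had at least 5 counts in every SHR-Tti2+/- rat.

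The 2 transcripts with the smallest p-values in each direction are described with every rat. They were chosen by their p-values in this comparison, so the separation of the genotypes in fat is a description of them, and their values in the other tissues are the part that the choice did not use. Their own sequences are not in the files used here.

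The smallest p-value in the fat belonged to ENSRNOT00000032467.4, a transcript of 1923 bases at the middle of the abundance range, at 8.47 TPM, above 52.5% of the tested transcripts per length. Wild-type rats 1 to 5 had 16.6, 15.1, 16.1, 14.0 and 16.8 CPM, and SHR-Tti2+/- rats 1 to 5 had 9.07, 9.47, 11.0, 11.3 and 9.01 CPM. The genotypes did not overlap, and the highest SHR-Tti2+/- rat lay 2.67 CPM under the lowest wild-type rat. Its mean in SHR-Tti2+/- fat was 63.5% of the wild-type mean, with a log2 fold change of -0.66 (95% interval -0.85 to -0.46, adjusted p = 0.337 by edgeR).

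The second was ENSRNOT00000025894.5, of 2100 bases. Wild-type rats 1 to 5 had 22.8, 22.1, 18.4, 19.8 and 21.0 CPM, and SHR-Tti2+/- rats 1 to 5 had 16.1, 15.2, 15.03, 15.2 and 14.5 CPM. The SHR-Tti2+/- rats were close together, with an SD of 0.553 CPM against 1.76 CPM in the wild-type rats (n = 5 each). Their mean was 73.1% of the wild-type mean, a log2 fold change of -0.45 with a standard error of 0.066 (95% interval -0.60 to -0.31, adjusted p = 0.354 by edgeR).

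On the higher side the smallest p-value belonged to ENSRNOT00000077285.1, a short transcript of 465 bases at 16.4 TPM in fat. Wild-type rats 1 to 5 had 2.64, 1.63, 2.74, 2.34 and 2.59 CPM, from 43.9 to 69.8 estimated counts. SHR-Tti2+/- rats 1 to 5 had 5.60, 6.63, 4.84, 4.03 and 5.28 CPM, from 95.4 to 159 estimated counts. All SHR-Tti2+/- rats were above all wild-type rats, at 221% of the wild-type mean, with a log2 fold change of 1.14 and a standard error of 0.18 (95% interval 0.74 to 1.54, adjusted p = 0.461 by edgeR).

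The next on the higher side was ENSRNOT00000086130.1, a long transcript of 7356 bases at 4.49 TPM. Wild-type rats 1 to 5 had 22.2, 23.6, 21.5, 24.2 and 24.7 CPM, and SHR-Tti2+/- rats 1 to 5 had 33.8, 27.3, 33.5, 31.2 and 28.1 CPM. The genotypes were 2.54 CPM apart at their nearest rats. The log2 fold change was 0.40 with a standard error of 0.073 (95% interval 0.24 to 0.57, adjusted p = 0.535 by edgeR).

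The third transcript in each direction had an unadjusted p-value of 0.000188 on the lower side and 0.000207 on the higher side, against 0.000205 for ENSRNOT00000086130.1.

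**Figure D2:**
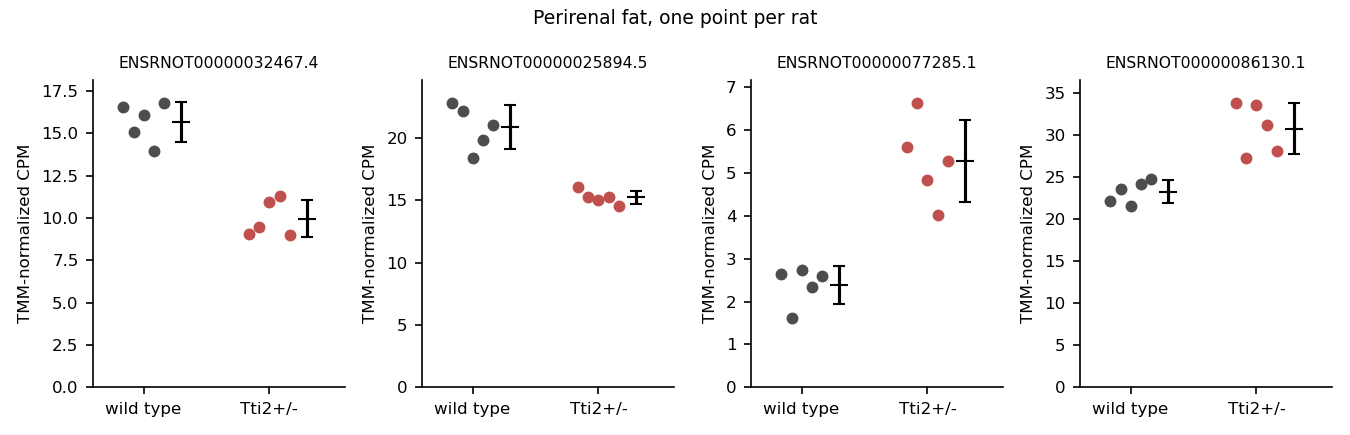
TMM-normalized CPM (vertical axis) of the 4 named transcripts in the fat of each rat, with the mean and SD of the 5 rats of each genotype beside the points. In each panel the SHR-Tti2+/- rats lie on one side of the wild-type rats; for ENSRNOT00000077285.1 they run from 4.03 to 6.63 CPM above 1.63 to 2.74 CPM.

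The 4 transcripts differed in how far their genotype difference was seen outside the fat. Most rats gave more than one tissue, so the tissues are further samples but largely not further animals. ENSRNOT00000032467.4 was lower and called in the liver (adjusted p = 0.037), soleus muscle (adjusted p = 0.0018) and hippocampus (adjusted p = 0.013) by edgeR, at 58.5%, 53.4% and 57.2% of the wild-type mean. The 63.5% in fat was the highest of the 4 tissues, but the interaction of tissue and genotype did not separate fat from the liver, muscle or hippocampus for this transcript (edgeR adjusted p = 0.882, 0.761 and 0.992).

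ENSRNOT00000025894.5 was also lower in the liver. Wild-type livers had 4.87, 6.56, 3.52, 4.57 and 6.12 CPM and SHR-Tti2+/- livers 2.41, 2.53, 2.06, 2.74 and 1.74 CPM, again without overlap. The SHR-Tti2+/- mean was 44.8% of the wild-type mean, a log2 fold change of -1.16 with a standard error of 0.19, which was called (adjusted p = 0.0508 by edgeR). In the hippocampus its genotypes overlapped, at 33.3 ± 4.73 CPM in wild-type and 27.2 ± 1.54 CPM in SHR-Tti2+/- rats (SD, n = 5 each, edgeR log2 fold change -0.29, adjusted p = 0.938). The 95% interval there ran from -0.51 to -0.08 (unadjusted p = 0.012 by edgeR), so it left out 0 and held the -0.45 seen in fat. In the soleus muscle the values were 11.4 ± 0.839 and 11.2 ± 1.12 CPM (SD, n = 5 each), with a 95% interval of the log2 fold change from -0.20 to 0.17. This interval does not reach the -0.45 seen in fat. The interaction had an unadjusted p-value of 0.000518 for muscle against fat and 0.00197 for liver against fat by edgeR, and neither passed adjustment (adjusted p = 0.447 and 0.289).

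The 2 transcripts on the higher side were not called in any other tissue. ENSRNOT00000077285.1 had a log2 fold change of -0.40 in the hippocampus (95% interval -1.04 to 0.24) and of 0.45 in the liver (95% interval -1.30 to 2.20). Its values in liver and muscle scattered widely, from 0 to 3.91 CPM in wild-type livers and from 0 to 4.57 CPM in wild-type muscles, so those intervals still hold the difference seen in fat. ENSRNOT00000086130.1 had log2 fold changes of 0.05 in the liver, 0.02 in the muscle and -0.12 in the hippocampus. Each 95% interval held 0 and did not reach the 0.40 seen in fat. Its interaction had an unadjusted p-value of 0.0283 for liver against fat and 0.0247 for muscle against fat by edgeR. Neither passed adjustment (edgeR adjusted p = 0.519 and 0.76). For both transcripts on the higher side, the interaction against the hippocampus had a small unadjusted p-value (0.000344 and 0.0022) and an adjusted p-value of 0.992 by edgeR.

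**Figure D3:**
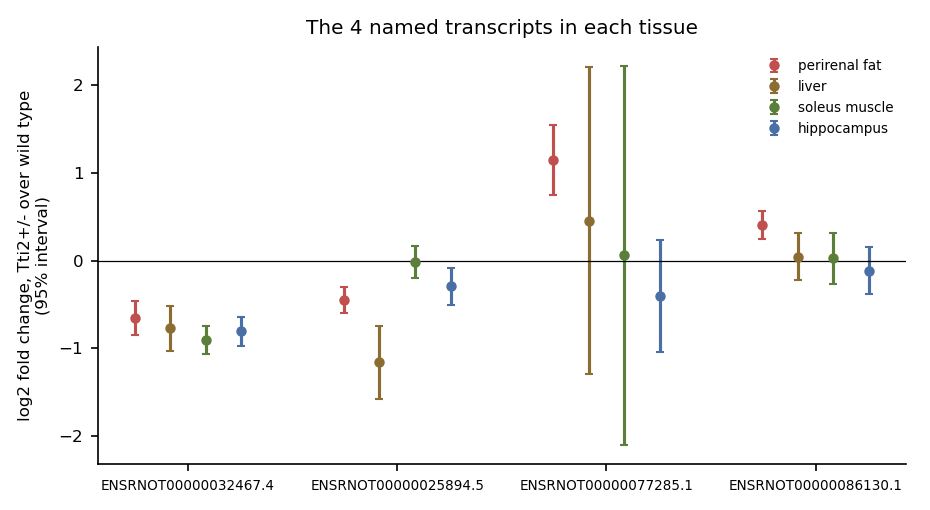
Log2 fold change of SHR-Tti2+/- over wild-type rats with its 95% interval (vertical axis) for the 4 named transcripts in each tissue, 5 rats per genotype and tissue. ENSRNOT00000032467.4 lies below 0 in all 4 tissues, between -0.90 and -0.66, and ENSRNOT00000025894.5 lies at -1.16 in the liver and -0.02 in the muscle.

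Transcript length moved with the differences. Tested transcripts were split into 4 classes of length. In the longest class, 3363 transcripts of 4000 bases and over, 298 were higher and 98 lower at an unadjusted p-value under 0.05 (8.86% and 2.91% of the class), against 3.83% and 3.15% of all tested transcripts. In the shortest class, under 1000 bases, the counts were 70 and 68 of 3328 (2.1% and 2.04%). The median log2 fold change was 0.04 in the longest class and -0.01 in the shortest, and 61.3% of the longest class lay above 0. The genotypes overlapped, however. The median deviation of the longest class from the mean of all 10 samples, on the log2 scale, was -0.02, -0.0011, -0.06, 0.01 and -0.01 in wild-type rats 1 to 5 and 0.08, 0.08, 0.02, -0.0095 and -0.02 in SHR-Tti2+/- rats 1 to 5. SHR-Tti2+/- rats 1 and 2 were the highest and wild-type rat 3 the lowest. Without SHR-Tti2+/- rat 1 the count of higher transcripts was 165 in place of 298, and without SHR-Tti2+/- rat 5 it was 393. ENSRNOT00000086130.1 belongs to this class. RNA integrity values are not in the labels, and their part in this was not tested.

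**Figure D4:**
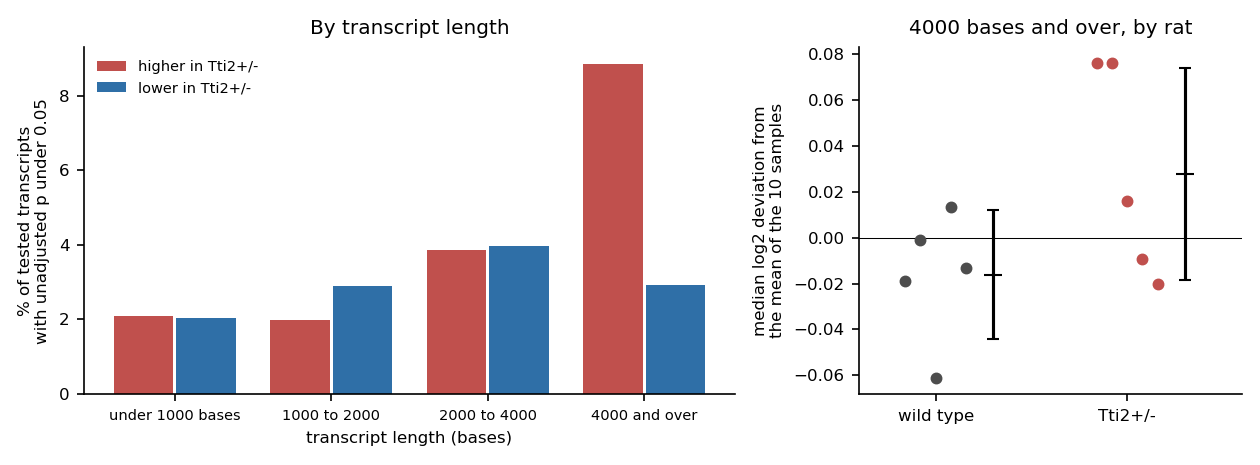
Left, share of tested transcripts with an unadjusted p-value under 0.05 that were higher or lower in SHR-Tti2+/- fat, by transcript length in bases; the longest class has 8.86% higher and 2.91% lower. Right, median log2 deviation of the longest class from the mean of the 10 fat samples, one point per rat, with the mean and SD of each genotype; the genotypes overlap.

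Transcripts particular to a tissue were found from the 40 samples of both genotypes, as those with at least 10 CPM in a tissue and at least 20 times the level of each of the other 3 tissues. The fat had 84 such transcripts, and all were tested. Of these, 0 differed at an unadjusted p-value under 0.05, where 6.97% of all tested transcripts did, and 0 had genotypes that did not overlap. Their log2 fold changes had a median of -0.02 and ran from -1.29 to 0.32, with 35 above and 49 below 0. Together they took 5.50 to 6.65% of the counts of a wild-type sample and 5.38 to 6.33% of an SHR-Tti2+/- sample. The transcripts that set the fat apart from the other tissues sequenced thus showed no difference between the genotypes that passed the test.

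Transcripts restricted to the liver and the muscle lay higher in SHR-Tti2+/- fat on average, but single rats decided this. Of 360 liver-restricted transcripts tested in fat, 260 lay above 0 with a median log2 fold change of 0.23, and 9 were higher and 1 lower at an unadjusted p-value under 0.05 (2.78% together, against 6.97% of all tested transcripts). The summed share of the liver list was 0.261, 0.1695, 0.181, 0.222 and 0.187% of counts in wild-type rats 1 to 5 and 0.207, 0.198, 0.188, 0.211 and 0.305% in SHR-Tti2+/- rats 1 to 5. SHR-Tti2+/- rat 5 was the highest, and of the 502 listed transcripts with at least 5 counts in some fat sample, 253 were highest in that rat. Without it the median log2 fold change was -0.07.

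Of 202 muscle-restricted transcripts tested in fat, 146 lay above 0 with a median of 0.22, and 6 were higher and 2 lower at an unadjusted p-value under 0.05 (3.96% together, again against 6.97%). The summed share of the muscle list was 0.194 to 0.216% of counts in the wild-type rats and 0.196, 0.186, 0.184, 0.324 and 0.210% in SHR-Tti2+/- rats 1 to 5. Here SHR-Tti2+/- rat 4 stood alone, with the highest value of 151 of the 280 listed transcripts with at least 5 counts. Without it the median was -0.02. In liver and muscle samples the same lists took at least 45.6% and 37.7% of the counts. The 933 hippocampus-restricted transcripts took 0.142 to 0.158% of the counts in every fat sample, and the median of the 486 tested was -0.03. The part of other cells in the dissected samples in these values was not tested.

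**Figure D5:**
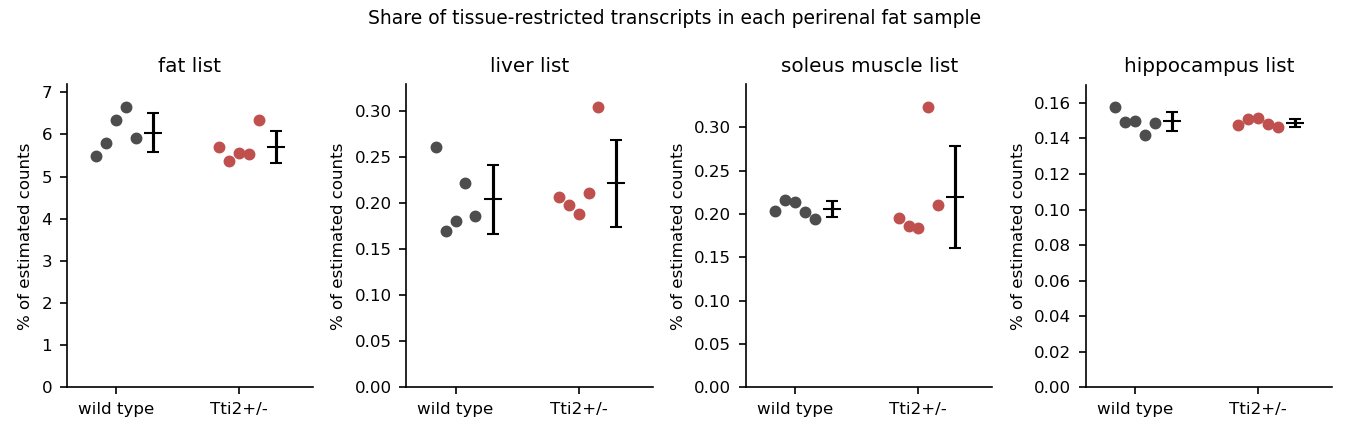
Share of the estimated counts of each fat sample (vertical axis, percent) taken by transcripts restricted to fat, liver, soleus muscle or hippocampus, one point per rat with the mean and SD of 5 rats beside them. SHR-Tti2+/- rat 5 is highest for the liver list (0.305%) and SHR-Tti2+/- rat 4 for the muscle list (0.324%).

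The genotypes were not separated by the leading components of the profile. On log2 CPM, the first 4 principal components carried 16.1%, 13.5%, 11.5% and 10.9% of the variance. The scores of the genotypes overlapped on the first, and their means did not differ on the first 3 by exact permutation tests (p = 0.35, 0.61 and 0.31). On the fourth, the wild-type mean was -19.5 and the SHR-Tti2+/- mean 19.5 (exact permutation p = 0.040, or 0.16 after adjustment over the 4 components). The spread between rats was alike in size, with a biological coefficient of variation of 24.7% in wild-type and 24.5% in SHR-Tti2+/- fat. Wild-type rat 3 lay farthest from the rest, and without it the wild-type value was 21.1%.

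DESeq2's Wald test called transcripts in the same table where edgeR's test did not. It called 15 as higher (0.0744% of those tested) and 5 as lower (0.0248%) at the same thresholds. DESeq2 gave no adjusted p-value for 4329 of the tested transcripts, so its adjustment ran over fewer transcripts than edgeR's. Over the 16673 transcripts with at least 10 counts in every sample, edgeR's test also called 0. Why the calls of DESeq2 and edgeR differ was not tested. The 20 were chosen by their genotype difference in these same rats, so the separation of the genotypes in them is a description. In 17 of the 20 the genotypes did not overlap, where 0.72% of all tested transcripts did not on the higher side and 0.595% on the lower. None of the 20 had a count of 0 in any rat, 9 had 1 to 10 CPM and 11 more than 10 CPM. No single rat held more than 50% of the summed CPM of any of them. By edgeR's test their unadjusted p-values ran from 1.67e-05 to 0.00459 and their adjusted p-values from 0.337 to 0.681. ENSRNOT00000032467.4 (DESeq2 adjusted p = 4.88e-07) and ENSRNOT00000077285.1 (DESeq2 adjusted p = 3.97e-05) were among the 20. ENSRNOT00000025894.5 and ENSRNOT00000086130.1 had DESeq2 adjusted p-values of 4.46e-05 and 0.00233 but fell short of the fold-change limit.

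With SHR-Tti2+/- rat 4 left out, edgeR's test called 1 transcript, of 1594 bases, which is described because that fit singled it out after its values were seen. In the fat its estimated count was 323, 358, 141, 327 and 251.8 in wild-type rats 1 to 5. In SHR-Tti2+/- rats 1, 2, 3 and 5 it was at most 1.54, below the floor of 3 counts, and in SHR-Tti2+/- rat 4 it was 105. Without rat 4 the transcript passed the filter of 5 counts in 5 samples through the wild-type rats alone, so that call only describes it. All SHR-Tti2+/- rats were thus below all wild-type rats also with rat 4, but with all 10 rats the adjusted p-value was 0.681 by edgeR and 0.461 by DESeq2. In the liver its count ran from 185 to 451 in wild-type and from 0.0638 to 69.2 in SHR-Tti2+/- rats (edgeR log2 fold change -3.53, standard error 0.71, adjusted p = 0.107). In the muscle the genotypes overlapped, with a log2 fold change of 0.23 (standard error 0.48). In the hippocampus, counts near 0 and above 100 occurred in both genotypes. Reads that fit several transcripts are shared out by estimation, and without gene names the transcripts of this gene could not be added up.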

How the data were processed

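Sample groups came from the titles in the labels. The authors quantified reads with kallisto (0.46.0 and build rn6 in the submitters' processing notes) against Ensembl rat cDNA, with sequence bias correction. The deposited tables give estimated counts, in which reads shared by transcripts are divided between them, and TPM, scaled by the authors' software for effective length and depth. Effective lengths were not used. TPM served only to place transcripts by abundance per length.

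A transcript was tested if 5 or more of the 10 fat samples had 5 or more estimated counts. Estimated counts were rounded and fitted in R 4.3.3 with edgeR 4.0.16 (TMM, quasi-likelihood F-test with a genotype term alone, Benjamini-Hochberg adjustment over all tested transcripts), the other tissues likewise. This replaces the Wald test of sleuth. Standard errors are the log2 fold change divided by the root of F, and 95% intervals use the t distribution. The interaction fits treat tissues of 1 rat as independent. Principal components used a prior count of 1. Alternatives used DESeq2 1.42.0, limma 3.58.1 (natural log, pseudocount 0.5) and libraries thinned to the lowest total. edgeR's test was run on simulated fat counts with changes well above the fold-change limit, and the exact permutation formula was checked. Smaller changes and the other tests were not simulated.

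At these depths the floor of 3 counts is 0.112 to 0.134 CPM, for counting error only. No fat samples of a genotype were alike within sampling noise (chi-square per degree of freedom of 13.2 or more). P-values measure the spread between these rats. The transcripts named were the 2 with the smallest p-values in each direction. The comparison, lists, thresholds and alternatives were chosen with earlier results of these data known. Gene lists could not be run without names.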

Additional observations from a re-analysis of the deposited data

Results flagged for a closer look

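Among 28 groups of 5 samples examined for a rat far from the others (Dixon's critical value 0.71), 4 stood out, where chance gives about 1 in 20, or 1.4. Wild-type rat 3 had a mean distance of 103.3 from the other rats in the plane of the first 2 principal components, a ratio of 0.747. SHR-Tti2+/- rat 5 had 29.16% of its counts in its 100 most abundant transcripts, a ratio of 0.729, and 0.3045% in liver-restricted transcripts, a ratio of 0.798. SHR-Tti2+/- rat 4 had 0.3236% in muscle-restricted transcripts, a ratio of 0.81.

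The effect of the genotype differed between fat and liver for 2 of 17355 transcripts, by the interaction of tissue and genotype in edgeR's test at an adjusted p-value under 0.1. The first, of 5166 bases, had 25.8 ± 1.65 and 26.9 ± 1.05 CPM in wild-type and SHR-Tti2+/- fat (SD, n = 5 rats each) and 17.1 ± 1.35 and 12.1 ± 0.594 CPM in the livers (edgeR adjusted p = 0.0301 for the interaction). The second, of 4990 bases, had 56.9 ± 2.31 and 57.9 ± 2.68 CPM in fat and 4.97 ± 0.352 and 3.48 ± 0.231 CPM in the livers (edgeR adjusted p = 0.0301). Both were lower in the SHR-Tti2+/- livers, and in fat their log2 fold changes were 0.06 ± 0.054 and 0.03 ± 0.045 (standard errors). Against the muscle and the hippocampus, 0 transcripts passed by the same edgeR test. At an unadjusted p-value under 0.05 lay 1116 of 17243 tested against the muscle and 812 of 18340 against the hippocampus. The count against the liver was 1554 of 17355.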

How the results depend on the processing

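The count of 0 called transcripts was also given by DESeq2's size factors, limma, edgeR's newer small-count adjustment and both other filters. The thinned libraries and the rat number as a replicate block gave 0 as well. A stricter adjusted p-value of 0.05 and dropping the fold-change limit reused the main edgeR fit. Its smallest adjusted p-value was 0.337, so these settings could only give 0. DESeq2's Wald test called 20. With each rat left out in turn the count was 0 to 1, the 1 without SHR-Tti2+/- rat 4. At an unadjusted p-value under 0.05 those fits gave 499 to 988 higher and 490 to 746 lower transcripts. Non-overlapping transcripts numbered 373 to 569, against 265 with all rats, since 4 rats against 5 separate more easily.

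The difference in total count was -1872400, and -2421300 to -1530000 with a rat left out (exact permutation p from 0.0159 to 0.111). The share in the 10 most abundant transcripts differed by -0.584 to -0.192 percentage points and in the 100 most abundant by -1.02 to -0.495. SHR-Tti2+/- fat had 52.2 more detected transcripts (12.9 to 77.7 with a rat left out), and 165.4 more after thinning (exact permutation p = 0.048).

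The replicate block lowered the counts at p under 0.05 to 595 higher and 502 lower. Rat numbers mark different animals, and same-numbered rats deviated with correlations of -0.0688 to 0.0822, with 2 of 5 matching their own number best. The 4 named transcripts kept their direction in all 18 alternative fits. They were chosen by their p-values in these same rats, and their genotypes do not overlap in fat. Leaving out a rat could therefore hardly reverse them, and the other fits used the same rats. Each of the 4 was called in none of these fits, except ENSRNOT00000032467.4 and ENSRNOT00000077285.1 by DESeq2. Without wild-type rat 3, ENSRNOT00000025894.5 had an adjusted p-value of 0.0758 by edgeR, under the fold-change limit. The list medians and length classes were examined after the data were seen. The liver and muscle medians were 0.06 and 0.12 with at least 10 counts in every sample and 0.29 and 0.35 without the filter. With a rat left out they ran from -0.07 to 0.43 (without SHR-Tti2+/- rat 5 and wild-type rat 1) and from -0.02 to 0.27 (without SHR-Tti2+/- rats 4 and 5).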
